A study of Mus musculus with 12 samples.

Results

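Stem and multipotent cells of wild-type (WT) mouse bone marrow were set against the myeloid progenitors that descend from them. LSK+ cells carry no mature lineage markers but carry both Sca-1 and c-Kit on their surface, and LSK- cells lack the lineage markers and Sca-1 but carry c-Kit. The 2 LSK+ WT and the 2 LSK- WT RNA-seq libraries, chosen by their labels, are 4 of the 12 libraries of the series. All came from 3-month-old female mice of the 129Sv4/Jae x B6 background, and each library held the pooled RNA of 2 mice. Lineage-positive cells were marked with antibodies against CD11b, Gr-1, CD3ε, B220, CD8a, CD4 and TER-119, and both populations were sorted on 1 of 2 instruments, with no record here of which was used for which library. The same LSK+ minus LSK- difference in mice whose Xist gene was deleted in blood cells (XistΔ/Δ, 2 libraries per population) was measured in the same way, and its counts or medians are given with most gene lists. That deletion used Vav-iCre, a recombinase driven by a promoter active across blood cells, and whether the WT mice carried the floxed allele or the Cre is not given in the sources used here.

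Hematopoietic stem cells renew themselves for life and divide seldom. They give rise to multipotent progenitors, which still carry Sca-1, and these to committed progenitors that have lost it and divide fast on their way to granulocytes and monocytes, red cells, or platelets. The LSK+ gate holds stem and multipotent cells together, and the LSK- gate holds common myeloid, granulocyte-monocyte and megakaryocyte-erythroid progenitors together, so each library is an average over several cell types.

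A limit of the comparison lies in the sequencing. All of these libraries were made with the same cDNA kit, SMART-Seq v4, which primes on the poly(A) tail and copies full-length transcripts, but the LSK+ libraries were sequenced as single reads and the LSK- libraries as paired reads on another sequencer. Population and read type therefore cannot be told apart for any single gene, in WT or in XistΔ/Δ. Total counts were 50404545 and 53233323 in LSK+ WT and 79455176 and 76208687 in LSK- WT, at which the floor of 3 counts corresponds to 0.0396 to 0.0566 counts per 1000000 counts (CPM), counting error only. Replicates differed by more than sampling noise (chi-square per degree of freedom 103 in LSK+ and 337 in LSK-), and log2 CPM correlated across genes at r = 0.971 between the LSK+ and 0.965 between the LSK- replicates. Each group has 2 replicates, so the p-values measure the spread between pools of mice handled in this study. In bulk libraries such as these, fewer cells of a type and less RNA per cell cannot be told apart.

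One pattern followed transcript length. Among genes whose exons add up to 500 to 1000 nt, the median LSK+ minus LSK- log2 difference was -0.80 (887 genes), and 38.1% of them were lower in LSK+ while 3.61% were higher. The median was 0.14 for exon lengths of 2000 to 4000 nt (5807 genes) and 0.14 for 4000 to 8000 nt (3976 genes). It was below 0 again for 8000 nt and over, at -0.15 (739 genes), with 9.74% higher and 12.0% lower. Genes under 1000 nt took 2.50% and 2.70% of the counts in the LSK+ WT libraries and 5.44% and 6.04% in the LSK- WT libraries. They supplied 390 of the genes called lower, 20.6% of such calls from 7.81% of the genes tested. The XistΔ/Δ libraries, sequenced the same way, had a median of -0.89 in the same 500 to 1000 nt class. Whether the read type or the cells gave this trend was not tested, so the trend was also removed, in a setting chosen after the data were seen. Of the 21 genes under 1000 nt that the rule for named genes took, 21 kept their direction, 20 had a difference nearer 0 and 20 were called with the trend removed, the exception being Gmnn. That rule takes mostly called genes whose WT libraries do not overlap, so the 21 do not stand for all short genes. How many of the 390 kept their call with the trend removed is not reported here.

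**Figure D1:**
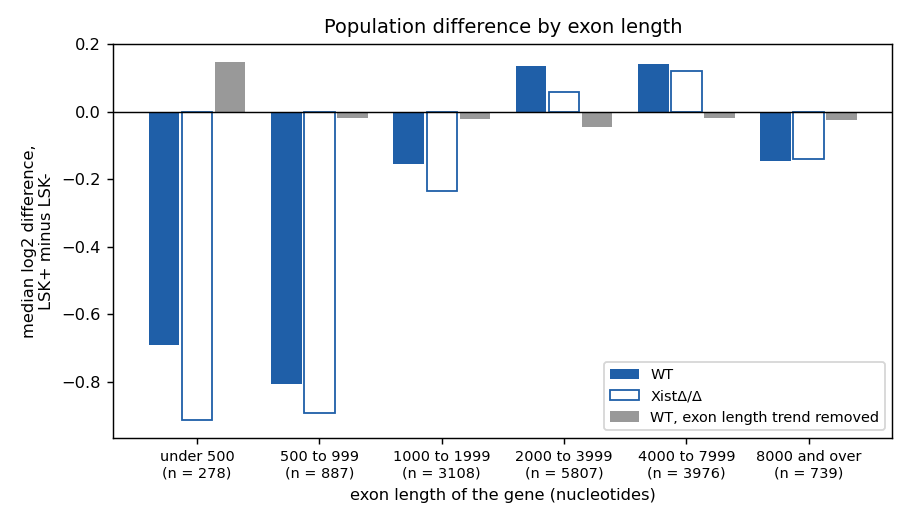
Median LSK+ minus LSK- log2 difference (vertical axis) of the tested genes in 6 classes of exon length (horizontal axis, nt), for WT, for XistΔ/Δ and for WT with the length trend removed. The WT bars are at -0.69 and -0.80 under 1000 nt, at -0.15 from 1000 to 2000 nt and at 0.14 between 2000 and 8000 nt. At 8000 nt and over the WT bar is at -0.15. The bars with the trend removed lie between -0.04 and 0.15.

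The gene that encodes the sorted antigen separated the populations. Ly6a (Sca-1, chr15:74994877-74998031, minus strand on mm10) was read at 47.4 and 64.0 CPM in the LSK+ WT libraries and at 2.51 and 1.93 CPM in the LSK- WT libraries (log2 difference 4.65, SE 0.25, adjusted p = 0.000215). The sets are far apart, and so are those of XistΔ/Δ (log2 difference 4.47). Kit, whose protein c-Kit was selected in both gates, was read at 938 and 1062 CPM in LSK+ and 523 and 632 CPM in LSK- (log2 difference 0.79, SE 0.20, adjusted p = 0.0221), lower in each LSK- than in each LSK+ library, but its call was lost with the length trend removed (adjusted p = 0.0970) and in the other settings named at the end. Of the genes behind the lineage antibodies, Ptprc (B220 is a form of its protein CD45) was higher in LSK+ at 243 and 308 against 131 and 110.4 CPM, Itgam (CD11b) was at 45.5 and 49.5 against 32.6 and 27.5 CPM with no call, and Cd3e and Cd8a held at most 0.14 CPM in any of the 4 libraries. Cd4 was higher in LSK+, at 12.3 and 9.03 against 2.77 and 3.04 CPM. Ly6c2, part of the Gr-1 antigen, was lower, at 8.35 and 4.19 against 389 and 248 CPM (log2 difference -5.67, SE 0.73, adjusted p = 0.00139).

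Of 14910 genes tested with edgeR's quasi-likelihood test, 2084 (14.0%) were higher and 1895 (12.7%) lower in LSK+ than in LSK- WT cells at an adjusted p under 0.05 (two-sided, Benjamini-Hochberg). The median log2 difference over all genes tested was 0.031. In 34.0% of the genes both LSK+ WT libraries were above both LSK- WT libraries, and in 31.1% both were below. Such separation was thus common, and the rule that picked most named genes asks for it. In XistΔ/Δ, 1965 (13.2%) were higher and 1887 (12.7%) lower. Of the genes higher in WT, 1566 were also higher in XistΔ/Δ, which is 75.1% of the WT and 79.7% of the XistΔ/Δ calls. For the genes lower in LSK+ the shared number was 1416, or 74.7% and 75.0%. Across genes, which are not independent replicates, the WT and XistΔ/Δ differences correlated at r = 0.771. The WT counts leaned on a single library more than on the others: without LSK+ WT replicate 2 they were 902 higher and 638 lower, and without LSK+ WT replicate 1 they were 1335 and 1165.

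The transcription factors and other regulators that maintain stem cells were mostly higher in LSK+ cells. Of a list of 27, 18 were higher and 0 lower, with a median log2 difference of 1.80. Hlf, a leucine zipper factor of stem cells (chr11:90336536-90390895, minus strand), was read at 281 and 457 CPM in LSK+ and at 22.6 and 37.3 CPM in LSK- WT libraries (log2 difference 3.62, SE 0.37, adjusted p = 0.000587). Mecom, the locus of the Evi1 factor that stem cell renewal needs, was at 53.4 and 67.8 against 3.83 and 3.75 CPM (log2 difference 4.0, SE 0.28, adjusted p = 0.000215). For both genes the lowest LSK+ library was far above the highest LSK- library. Nkx2-3, a homeobox factor, was at 122 and 183 against 10.8 and 8.01 CPM (log2 difference 4.02, SE 0.33, adjusted p = 0.000292), and Gata3, known from T cells and also used in stem cells, was at 37.2 and 41.1 against 3.92 and 6.99 CPM (log2 difference 2.84, SE 0.34, adjusted p = 0.000976). Meis1, a partner of HOX proteins, Mycn, Prdm16 and Lmo2, an adaptor in the complex formed by TAL1 and GATA factors, were higher by 2.06, 2.54, 2.73 and 1.22 on the log2 scale. The factors without a call included several that progenitors use too. Runx1 was at 108 and 124 against 194 and 145 CPM, Tal1 at 34.8 and 53.4 against 42.7 and 71.8, Gata2 at 411 and 459.6 against 290.0 and 374, and Gfi1b at 46.9 and 113 against 108 and 257. In XistΔ/Δ the same list had 18 members higher and 0 lower and a median of 1.45. Without LSK+ WT replicate 2, only 10 of the 27 were called.

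HOX genes of the A and B clusters encode body-plan factors that stem cells also express. Of 21 listed, 13 passed the filter on low counts, 8 were higher and 0 lower, and the median of those tested was 2.64. Hoxa9 had the highest counts, at 155 and 170.1 CPM in LSK+ and 48.8 and 38.5 CPM in LSK- WT (log2 difference 1.90, SE 0.18, adjusted p = 0.000440). Hoxa10 followed, at 58.5 and 77.7 against 5.38 and 15.0 CPM (log2 difference 2.74, SE 0.53, adjusted p = 0.00778). Hoxb5, which marks long-term stem cells, was low in both populations and still apart, at 2.28 and 6.26 against 0.251 and 0.369 CPM (log2 difference 3.78, SE 0.61, adjusted p = 0.00374). Hoxb4, at 5.68 and 5.53 against 4.76 and 3.10 CPM, had no call, and Hoxb6, at 0.566 and 0.330 CPM in LSK+, had 0 counts in both LSK- WT libraries and an adjusted p of 0.0767. The 8 members that failed the filter reached at most 0.12 CPM in the WT libraries, and 4 members were called without LSK+ WT replicate 2. In XistΔ/Δ 7 were higher and the median was 1.45.

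Surface proteins and other markers by which stem cells are recognised were also mostly higher. Of a list of 26, 15 were higher and 2 lower (median 1.23). Procr, the protein C receptor known as EPCR, was at 49.1 and 82.3 CPM in LSK+ and 3.51 and 3.96 CPM in LSK- WT (log2 difference 4.13, SE 0.30, adjusted p = 0.000220). Fgd5, an exchange factor for Cdc42, was at 34.1 and 41.7 against 2.85 and 1.90 CPM (log2 difference 3.99, SE 0.32, adjusted p = 0.000267), and Esam and Robo4, shared with endothelium, were higher by 3.15 and 3.80 on the log2 scale. In all of these the LSK+ and LSK- libraries did not overlap, which the rule for named genes asks for. Of the markers that divide the LSK+ gate within itself, the following had no call. Slamf1 (CD150) was at 8.39 and 14.9 against 7.74 and 17.4 CPM, Cd48 at 187 and 211 against 211 and 305, and Cd34, which also marks part of the progenitors, at 1352 and 1198 against 616 and 1008. The 2 members that were lower were Vwf, which is shared with megakaryocytes, at 8.01 and 15.1 against 33.9 and 27.4 CPM (log2 difference -1.41, SE 0.34, adjusted p = 0.0184), and Ly6e, of the same family as Sca-1, at 662 and 513 against 1167 and 1418 CPM (log2 difference -1.14, SE 0.23, adjusted p = 0.00901).

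**Figure D2:**
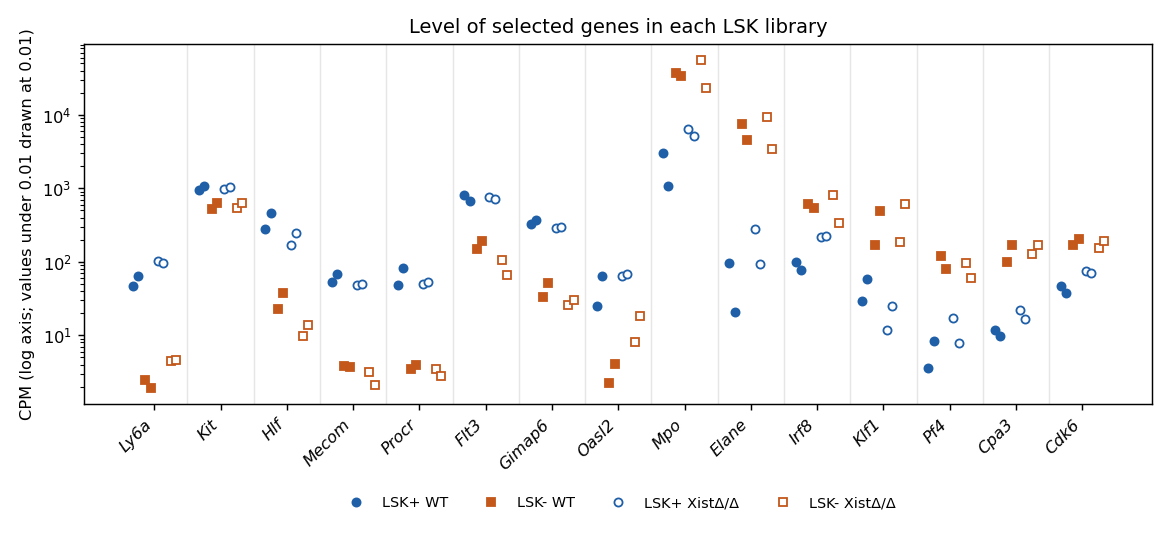
CPM (log axis, values under 0.01 drawn at 0.01) of 15 genes in the 8 LSK libraries, with circles for LSK+, squares for LSK-, filled marks for WT and open marks for XistΔ/Δ. Stem cell genes such as Mecom lie above in LSK+ (53.4 and 67.8 against 3.83 and 3.75 CPM in WT) and granulocyte genes such as Elane in LSK- (95.8 and 21.0 against 7546 and 4528 CPM).

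Lymphoid genes begin to be read in part of the multipotent progenitors. Of a list of 25, 6 were higher and 0 lower in LSK+ WT, with a median of 0.62, and 3 were called without LSK+ WT replicate 2. Flt3, the receptor kinase that marks multipotent cells on the lymphoid side, was at 824 and 672 CPM in LSK+ and 152 and 192 CPM in LSK- (log2 difference 2.12, SE 0.27, adjusted p = 0.00141). Lax1, an adaptor of lymphocyte signalling, was at 101 and 90.3 against 8.68 and 3.81 CPM (log2 difference 3.94, SE 0.43, adjusted p = 0.000738). Both were apart in all 4 libraries, which the rule for named genes asks for. So was Il12rb1, a chain of the interleukin 12 receptor (27.9 and 25.4 against 3.47 and 5.84 CPM). Dntt, the polymerase that adds bases at V(D)J joints, was at 644 and 298 CPM in LSK+ and 137 and 74.6 CPM in LSK- WT, with a log2 difference of 2.15 that was not called (SE 0.79, adjusted p = 0.0739). Genes of later lymphoid stages were low in both: Rag1 reached at most 0.33 CPM, and Il7r was at 7.17 and 2.43 against 4.85 and 1.73 CPM. In XistΔ/Δ, 13 of the 25 were called higher, with a median of 1.1. For Dntt the XistΔ/Δ difference was 5.10 and for Ccr9, a homing receptor of thymus progenitors, 3.51 against 1.63 in WT; no member of the list differed between the genotypes in the test of that difference.

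The GIMAP genes form a cluster of GTPases known for the survival of lymphocytes. All 8 listed were higher in LSK+ WT, with a median of 3.06, and all 8 in XistΔ/Δ, with a median of 3.55. Gimap6 was at 327 and 377 CPM in LSK+ and 33.5 and 51.4 CPM in LSK- WT (log2 difference 3.05, SE 0.24, adjusted p = 0.000255). Gimap1 was at 242 and 253 against 27.4 and 47.7 CPM (log2 difference 2.72, SE 0.31, adjusted p = 0.000909). Gimap3 had the largest difference of the family, at 10.1 and 14.2 against 0.462 and 0.199 CPM (log2 difference 5.18, SE 0.51, adjusted p = 0.000536), and Gimap9 the smallest, at 49.1 and 57.8 against 21.2 and 34.0 CPM (log2 difference 0.95, SE 0.27, adjusted p = 0.0314). With any WT library left out, 6 or 7 of the 8 were called.

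The interferon-induced genes that differed were higher in LSK+ cells. The list includes sensors of viral RNA, antiviral enzymes and the factors that carry the interferon signal, and many are known to be expressed in unstimulated stem cells. Of 40, 24 were higher, 0 lower and 16 not called in WT, and the median log2 difference was 1.36. The promoters of Ifit1, Oas3 and Gbp2, which were called, and of Gbp3, which was not, are shown because each holds the letters by which interferon-activated factors are known to bind, the interferon-stimulated response element, searched as GAAA, any 2 bases and GAAA again on both strands (TTTC on either side when read from the other strand). Capitals mark the match in the 150 bases before the transcription start, 5′ to 3′ in the direction of the gene, from RefSeq on GRCm38.p6, at chr19:34640739-34640888 (plus strand), chr5:120777660-120777809 (minus strand), chr3:142620513-142620662 (plus strand) and chr3:142559894-142560043 (plus strand).
Ifit1: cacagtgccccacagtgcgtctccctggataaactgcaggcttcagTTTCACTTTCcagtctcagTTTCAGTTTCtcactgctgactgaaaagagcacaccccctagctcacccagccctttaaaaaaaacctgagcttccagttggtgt
Oas3: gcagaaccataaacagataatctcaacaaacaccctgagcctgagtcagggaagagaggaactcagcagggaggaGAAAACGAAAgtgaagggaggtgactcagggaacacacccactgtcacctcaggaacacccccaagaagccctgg
Gbp2: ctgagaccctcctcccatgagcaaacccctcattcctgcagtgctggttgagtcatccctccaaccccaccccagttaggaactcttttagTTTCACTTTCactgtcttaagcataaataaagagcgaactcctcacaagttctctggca
Gbp3: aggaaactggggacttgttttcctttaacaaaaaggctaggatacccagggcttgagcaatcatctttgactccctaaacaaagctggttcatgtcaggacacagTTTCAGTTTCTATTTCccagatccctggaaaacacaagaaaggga

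In windows from 250 bases before to 50 after each start, 17 of the 33 windows of the list (51.5%) held these letters, against 1131 of all 32851 windows (3.44%). Of the 40 genes, 29 matched an entry of that table. Gbp3 has 2 windows, of which 1 held the letters, and that one is shown. The letters were found for 12 of the 18 matched genes that were called higher and for 4 of the 11 that were not called, and whether these shares differ was not tested. A match of letters is a description and not a binding site.

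Ifit1, which binds viral RNA, was read at 13.1 and 19.5 CPM in LSK+ and 0.884 and 1.28 CPM in LSK- WT (log2 difference 3.91, SE 0.49, adjusted p = 0.00122). Oas3, which makes the oligoadenylate that switches on RNase L, was at 23.6 and 26.2 against 3.44 and 3.35 CPM (log2 difference 2.87, SE 0.21, adjusted p = 0.000215), and its sister gene Oasl2 was at 25.0 and 65.1 against 2.27 and 4.04 CPM (log2 difference 3.84, SE 0.57, adjusted p = 0.00256). In each the LSK+ values were far above the LSK- values, with LSK+ replicate 2 the higher of the pair. Ifi44 was at 45.7 and 80.0 against 4.96 and 7.42 CPM (log2 difference 3.34, SE 0.31, adjusted p = 0.000449), and Gbp2, a guanylate-binding protein, at 57.8 and 84.7 against 10.4 and 16.0 CPM (log2 difference 2.43, SE 0.42, adjusted p = 0.00507). Gbp3 was at 71.4 and 70.8 against 62.2 and 75.9 CPM, a log2 difference of 0.04 with SE 0.16. The signal carriers Irf9 and Irf7 were higher by 1.40 and 2.58, and the RNA sensors Ddx58 (RIG-I) and Ifih1 (MDA5) by 2.33 and 1.47. Bst2, which tethers virus at the membrane, was at 40.7 and 42.0 against 54.2 and 55.1 CPM, and Isg15 at 4.64 and 6.40 against 1.94 and 4.58 CPM, neither called. Both are short, and with the length trend removed they were at 0.39 and 1.64, the latter called (adjusted p = 0.0224). The receptor genes Ifnar1 and Ifnar2 had log2 differences of 0.66 and 0.17 with no call, while Ifngr1, of the receptor for interferon gamma, was lower in LSK+ (318 and 226 against 550.1 and 600.1 CPM). In XistΔ/Δ 17 of the 40 were higher and 0 lower, with a median of 0.74. With LSK+ WT replicate 2 left out, 14 were called in WT.

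Antigen presentation had 3 higher and 0 lower of 18 tested (median 0.59), a share near the 14.0% of all genes that were higher, and 0 were called in XistΔ/Δ (median 0.46). Nlrc5, the activator of class I genes, was at 38.3 and 54.3 against 12.7 and 9.93 CPM (log2 difference 2.03, SE 0.32, adjusted p = 0.00311, and 0.59 in XistΔ/Δ), and H2-K1, a class I heavy chain, at 2080.0 and 1901 against 869 and 1109.9 CPM (log2 difference 1.01, SE 0.23, adjusted p = 0.0137, and 0.48 in XistΔ/Δ). H2-Q4 was the other call, and its close copies make its counts uncertain. B2m, the class I light chain, was at 1338 and 1401 against 999.9 and 1617 CPM with no call, although with the length trend removed it was called, at 0.78 (adjusted p = 0.0431). The class II gene H2-Aa, at 32.8 and 42.1 against 28.6 and 4.77 CPM, and its activator Ciita, at 5.19 and 6.42 against 4.59 and 0.469 CPM, had no call. In both, LSK- WT replicate 1 was several times above replicate 2, and without LSK- WT replicate 1 the number of calls in the list was 8.

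**Figure D3:**
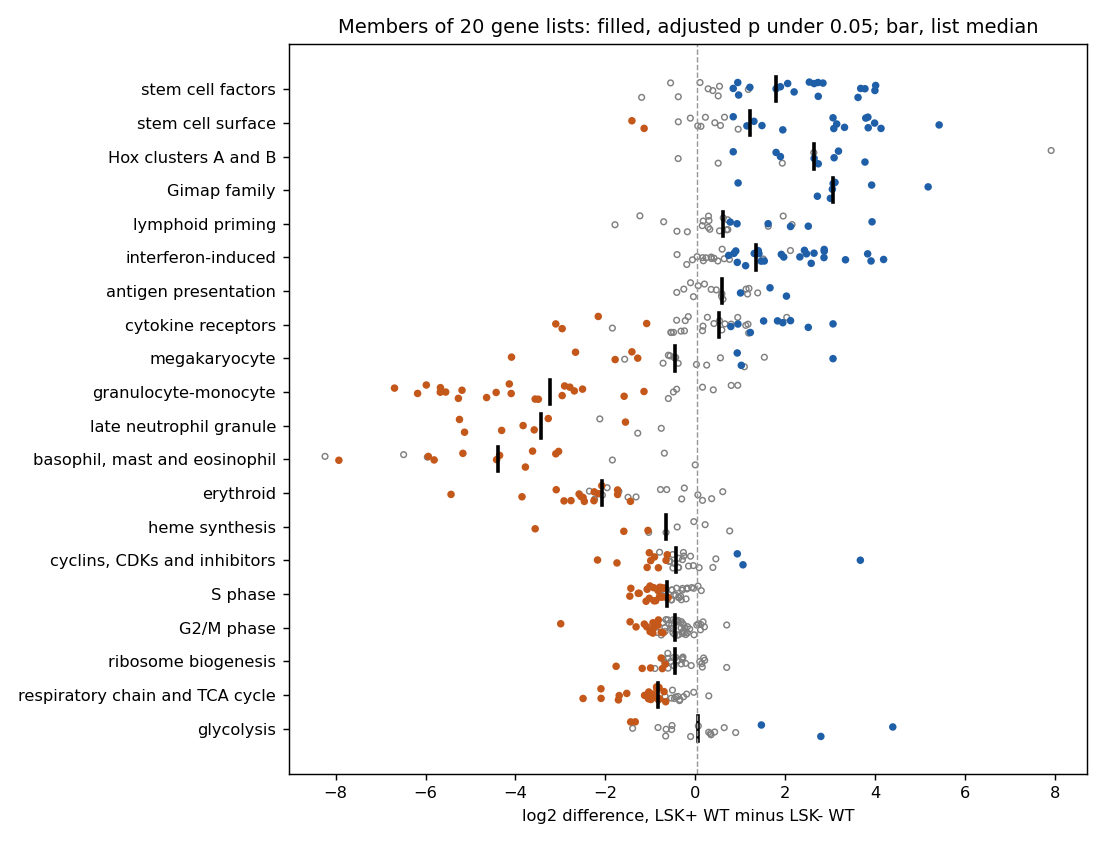
LSK+ minus LSK- log2 difference in WT of each tested member of 20 gene lists, filled where the adjusted p was under 0.05, with a bar at the list's median and a dashed line at the median of all genes (0.031). Medians run from 3.06 for the GIMAP family to -4.39 for basophil, mast cell and eosinophil genes.

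Cytokine receptors were called in both directions. Of 35, 9 were higher and 4 lower (median 0.54), where 14.0% and 12.7% of all genes were. The share that was lower was near that of all genes. Among the higher ones, besides Flt3, Kit and Il12rb1, were Il1r1, at 60.4 and 76.6 against 18.2 and 20.3 CPM (log2 difference 1.83, SE 0.20, adjusted p = 0.000707), Il2rg, the chain shared by several interleukin receptors, at 269.7 and 263 against 82.4 and 103 CPM (log2 difference 1.52, SE 0.21, adjusted p = 0.00180), and Tek, Tgfbr2 and Il4ra. The 4 lower ones were Csf1r, the receptor of macrophage growth factor, at 28.0 and 13.3 against 176 and 145 CPM (log2 difference -2.96, SE 0.49, adjusted p = 0.00407), Epor, the erythropoietin receptor, Il1rl1, of mast cells and basophils, and Ifngr1. Csf3r, the receptor of granulocyte colony-stimulating factor, was at 347 and 319.6 against 220.2 and 126 CPM and Csf2rb at 94.7 and 80.2 against 84.0 and 72.2 CPM, with no call. With either LSK+ WT library left out, 2 of the lower calls were made in place of 4, and the median was 0.20 without LSK- WT replicate 2.

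Genes of the granulocyte-monocyte line were lower in LSK+ cells. Of 28, 0 were higher and 21 lower, with a median of -3.23, and 20 were lower in XistΔ/Δ (median -2.62). With any WT library left out, 18 to 20 were called lower. Mpo, the peroxidase of the primary granule (chr11:87793581-87804413, plus strand), was at 3067 and 1085 CPM in LSK+ and 37094 and 33897 CPM in LSK- WT (log2 difference -4.10, SE 0.61, adjusted p = 0.00253), where it took 3.54% and 3.13% of all counts. Elane, neutrophil elastase, was at 95.8 and 21.0 against 7546 and 4528 CPM (log2 difference -6.69, SE 0.99, adjusted p = 0.00249), and Prtn3, proteinase 3, at 159.8 and 140.3 against 3941 and 2527 CPM (log2 difference -4.43, SE 0.45, adjusted p = 0.000573). Each LSK+ library was far below each LSK- library, and LSK+ replicate 1 had more of Mpo and Elane than replicate 2. Fcgr3, of the CD16/32 antigen that marks granulocyte-monocyte progenitors, was at 4.77 and 3.86 against 126 and 90.1 CPM (log2 difference -4.64, SE 0.48, adjusted p = 0.000619). Cebpe, a factor of the step to granulocytes, was at 1.98 and 1.16 against 137 and 61.1 CPM (log2 difference -5.98, SE 0.69, adjusted p = 0.000955), Irf8, of the monocyte branch, at 100.2 and 78.5 against 606 and 548 CPM (log2 difference -2.69, SE 0.37, adjusted p = 0.00185), and Cebpa at 71.8 and 51.0 against 179 and 188 CPM (log2 difference -1.58, SE 0.32, adjusted p = 0.00957). Spi1 (PU.1), which multipotent cells also need, was at 283 and 235 against 452 and 332 CPM and Gfi1 at 107 and 105 against 229.9 and 65.5 CPM, with no call. Several members are short, Elane at 984 nt of exons among them, and with the length trend removed its difference was -6.17 and that of Mpo -4.27.

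The Fcgr3 promoter is shown as an example of the letters TTGCNNAA (searched on both strands), which C/EBP factors are known to bind, in capitals within the 150 bases before the start at chr1:171059404-171059553 (minus strand).
Fcgr3: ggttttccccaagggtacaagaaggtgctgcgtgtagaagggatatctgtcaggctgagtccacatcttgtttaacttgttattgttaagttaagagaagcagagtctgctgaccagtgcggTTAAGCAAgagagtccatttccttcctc
Fcgr3 has 2 windows, both with the letters, and 1 of them is shown. Of the 28 windows that belong to 22 matched genes of the list, 8 (28.6%) held the letters, against 10.8% of all windows, and they were found for 6 of 17 genes called lower and for 1 of 5 others.

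Late neutrophil genes, of the secondary granule and beyond, were lower too: 7 of the 10 tested, with a median of -3.43 (5 and -2.92 in XistΔ/Δ). Camp, the cathelicidin, was at 0.0943 and 3.86 against 18.8 and 133 CPM (log2 difference -5.25, SE 1.34, adjusted p = 0.0229), and S100a8, a calcium-binding protein that mature neutrophils hold in quantity, at 0.566 and 7.31 against 78.1 and 200.2 CPM (log2 difference -5.13, SE 1.0, adjusted p = 0.00794). In both populations replicate 2 was the higher, by more in LSK+ than in LSK-. The number called was 3 without LSK+ WT replicate 1 (median -2.57), 9 without LSK+ WT replicate 2 (median -5.85) and 1 without LSK- WT replicate 2 (median -2.19). With the length trend removed 5 were called and the median was -2.74, and Camp (758 nt of exons) and S100a8 (486 nt) had differences of -4.36 and -3.80. Ly6g was not analysed here.

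Basophil, mast cell and eosinophil genes had the lowest median of the lists, -4.39, with 10 of 16 lower and 0 higher, and 12 lower in XistΔ/Δ. Hdc, which makes histamine, was at 10.9 and 2.86 CPM in LSK+ and 471 and 297 CPM in LSK- WT (log2 difference -5.81, SE 0.70, adjusted p = 0.00106). Cpa3, the carboxypeptidase of mast cells, was at 12.0 and 9.87 against 99.3 and 169 CPM (log2 difference -3.62, SE 0.31, adjusted p = 0.000311), and Ms4a2 and Fcer1a, chains of the IgE receptor, had log2 differences of -4.42 and -3.04. The eosinophil granule genes differed widely between the LSK- replicates. Epx was at 541 and 5.91 CPM and Prg2 at 1279 and 13.2 CPM in LSK- WT replicates 1 and 2, against 1.85 and 0 and 4.30 and 1.02 CPM in LSK+, and of these only Prg2 was called (adjusted p = 0.0402, and 0.0524 with the length trend removed). Without LSK+ WT replicate 1, 6 of the 16 were called, and without LSK- WT replicate 1 the median was -3.02.

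The erythroid genes that differed were lower in LSK+ cells. Of 31, 0 were higher, 16 lower and 15 not called (median -2.07), and in XistΔ/Δ 23 were lower (median -3.40). Klf1, the master factor of red cells (chr8:84901928-84905291, plus strand), was at 29.7 and 57.6 CPM in LSK+ and 167 and 494 CPM in LSK- WT (log2 difference -2.92, SE 0.72, adjusted p = 0.0194). Gata1 was at 24.8 and 34.9 against 96.6 and 234 CPM (log2 difference -2.47, SE 0.56, adjusted p = 0.0146), and Tfrc, which takes up iron bound to transferrin, at 32.3 and 56.4 against 158 and 136 CPM (log2 difference -1.73, SE 0.29, adjusted p = 0.00396). The populations did not overlap, and replicate 2 was the higher in both for Klf1 and Gata1. Car1, a carbonic anhydrase, was at 131 and 271 against 822 and 2612 CPM (log2 difference -3.09, SE 0.84, adjusted p = 0.0288), whereas Car2, of the same family, was at 1283 and 1792 against 772 and 2179 CPM, with overlap and no call. Nfe2 and Zfpm1 (FOG1), factors shared with megakaryocytes, were at 634 and 702 against 341 and 533 CPM and 253 and 270.0 against 191 and 215 CPM, also without a call. Epor was at 12.0 and 28.2 against 66.2 and 113 CPM (log2 difference -2.16, SE 0.59, adjusted p = 0.0282). The count of 16 fell to 2 without LSK+ WT replicate 1, to 7 without LSK+ WT replicate 2 and to 5 without LSK- WT replicate 2. The hemoglobin genes Hba-a1, Hba-a2, Hbb-bt and Hbb-bs had 0 counts in all 8 LSK libraries. Red cells were lysed before the sort, and the authors removed reads of low mapping quality, which genes with near-identical copies lose, so these zeros are no measure of red cells.

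Part of the promoter of Epor is shown for AGATAA, a motif of GATA factors searched on both strands, in capitals in the 150 bases before its start at chr9:21963577-21963726 (minus strand).
Epor: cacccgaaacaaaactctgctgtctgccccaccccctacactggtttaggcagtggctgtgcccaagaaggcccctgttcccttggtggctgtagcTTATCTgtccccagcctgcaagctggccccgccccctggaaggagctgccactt
These letters stood in 8 of the 30 windows of 22 matched erythroid genes (26.7%) and in 11.2% of all windows. They were found for 3 of the 12 matched genes called lower and for 4 of the 10 others.

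Heme synthesis had 3 of 9 genes lower and 0 higher (median -0.65). Alas1, the housekeeping form of the rate-limiting enzyme, was at 105 and 85.2 against 1508 and 736 CPM (log2 difference -3.56, SE 0.50, adjusted p = 0.00205), and Cpox, a further enzyme of the pathway, had a difference of -1.59 and was called. Alas2, the erythroid form, stayed low, at 0.754 and 2.86 against 1.40 and 1.71 CPM. In place of 3 calls, 1 was made without LSK+ WT replicate 1, LSK+ WT replicate 2 or LSK- WT replicate 2, each left out in turn, and the median was -0.26 without the last.

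Of 20 megakaryocyte genes tested, 3 were higher and 5 lower (median -0.45), where 14.0% and 12.7% of all genes were. The share that was higher was near that of all genes. In XistΔ/Δ 3 were higher and 1 lower (median 0.21), where 13.2% and 12.7% of all genes were. Pf4, the platelet chemokine, was at 3.56 and 8.27 CPM in LSK+ and 121 and 80.8 CPM in LSK- WT (log2 difference -4.09, SE 0.54, adjusted p = 0.00157, and -2.99 with the length trend removed), and Gp1bb, of the receptor for von Willebrand factor, at 3.07 and 2.92 against 16.4 and 21.6 CPM (log2 difference -2.66, SE 0.53, adjusted p = 0.00877, and -0.48 in XistΔ/Δ). Treml1, Vwf and Sdpr were the other lower genes. Selp (36.6 and 37.0 against 16.8 and 19.4 CPM) and Cd84 were among the higher ones. Itga2b (CD41), at 110.0 and 119 against 170.0 and 168 CPM, and Fli1, at 192 and 223 against 209 and 197 CPM, had no call. Without LSK+ WT replicate 1 the numbers were 2 higher and 2 lower and the median -0.11, without LSK+ WT replicate 2 they were 1 and 2, and without LSK- WT replicate 1 the higher calls were 1 and the median -0.18.

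Cell cycle genes that differed were mostly lower in LSK+. Among cyclins, CDKs and their inhibitors, 3 of 30 were higher and 9 lower (median -0.42), where 14.0% and 12.7% of all genes were. The share that was higher was not above that of all genes. In XistΔ/Δ 5 were higher and 7 lower, where 13.2% and 12.7% of all genes were. Cdk6, the kinase that lets stem cells leave rest, was at 46.3 and 37.2 CPM in LSK+ and 171 and 205 CPM in LSK- WT (log2 difference -2.17, SE 0.20, adjusted p = 0.000411). Ccne1, cyclin E1, was at 23.3 and 29.4 against 70.0 and 106 CPM (log2 difference -1.74, SE 0.31, adjusted p = 0.00540), and Ccna2 (cyclin A2) and Cdk1 were lower, with differences of -0.91 and -0.82. In the other direction, Cdkn1c (p57), the inhibitor known for keeping stem cells at rest (chr7:143458339-143461050, minus strand), was at 35.7 and 29.0 against 1.99 and 3.07 CPM (log2 difference 3.68, SE 0.39, adjusted p = 0.000633). Ccnd1 and Rbl2 (p130), a pocket protein of resting cells, were higher by 1.06 and 0.94. Myc, at 1147 and 1359 against 1199 and 1380.2 CPM, and Mki67, at 110.2 and 53.1 against 221 and 23.5 CPM, were not called, and the 2 LSK- values of Mki67 lay on either side of the LSK+ values. Without LSK+ WT replicate 2, 1 was higher and 2 were lower.

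Of 43 S phase genes 0 were higher and 19 lower (median -0.62). Rrm2, of ribonucleotide reductase, was at 146 and 113 against 351 and 347 CPM (log2 difference -1.43, SE 0.19, adjusted p = 0.00155), and Fen1, the flap nuclease, at 340.3 and 223 against 495 and 706 CPM (log2 difference -1.09, SE 0.26, adjusted p = 0.0161). The MCM helicase genes Mcm5 (604 and 389 against 765 and 842 CPM) and Mcm6 (1068 and 592 against 980.5 and 1234 CPM) were not called, and in both LSK+ replicate 1 was above replicate 2. When LSK+ WT replicate 2 was left out, 2 genes of the list were called, and XistΔ/Δ had 10 lower with a median of -0.33. For G2/M, 0 of 54 were higher and 13 lower (median -0.45), against 2 and 9 in XistΔ/Δ (median -0.24). Birc5 (survivin) was at 80.4 and 68.5 against 178 and 149 CPM (log2 difference -1.13, SE 0.17, adjusted p = 0.00267), and Cks2, a partner of CDKs with 692 nt of exons, at 1.62 and 1.85 against 16.0 and 11.7 CPM (log2 difference -2.99, SE 0.32, adjusted p = 0.000633, and -2.06 with the length trend removed). Cenpa, the centromere histone, and Cdc20, an activator of the anaphase-promoting complex, were lower, with differences of -1.0 and -0.76, while Top2a (292 and 220.3 against 439.7 and 246 CPM) and Tpx2 (138 and 91.7 against 182 and 96.2 CPM) overlapped between populations. The 13 became 4 without LSK+ WT replicate 2 and 24 without LSK- WT replicate 2. The letters TTCCCGCC, which E2F factors bind, were in 7 of 35 windows of the S phase list (20%) and in 2.19% of all windows, with matches for 0 of 14 genes called lower and for 7 of 17 others.

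Genes for making ribosomes and for respiration were lower in part. Of 30 ribosome biogenesis genes 0 were higher and 6 lower (median -0.45), among them Nhp2, of the H/ACA particles that guide pseudouridylation, at 103 and 69.8 against 227 and 357 CPM (log2 difference -1.76, SE 0.28, adjusted p = 0.00350), and Heatr1, at 73.9 and 56.3 against 139 and 120.4 CPM (log2 difference -0.99, SE 0.20, adjusted p = 0.00860). Ncl, nucleolin, was at 1213 and 665 against 1407 and 1065 CPM with no call. The number was 1 without LSK+ WT replicate 2 and 3 without LSK- WT replicate 2. Of 33 genes of the respiratory chain and the TCA cycle 0 were higher and 21 lower, with a median of -0.82 (-0.62 in XistΔ/Δ). Cox6c was at 19.2 and 22.6 CPM in LSK+ and 113 and 123 CPM in LSK- WT (log2 difference -2.50, SE 0.18, adjusted p = 0.000215), and Cox5a at 78.1 and 67.6 against 278 and 346 CPM (log2 difference -2.1, SE 0.18, adjusted p = 0.000325). Both are subunits of cytochrome oxidase with short transcripts (503 and 645 nt of exons), and with the length trend removed their differences were -1.20 and -1.05. Among longer members, and with the trend left in, Uqcrc1, of complex III, was at 599 and 498 against 926 and 1244 CPM (log2 difference -0.98, SE 0.21, adjusted p = 0.0120), and Atp5b, of the ATP synthase, at 1691 and 1386 against 2383 and 3389.8 CPM (log2 difference -0.91, SE 0.24, adjusted p = 0.0275). With the trend removed the list had 22 lower and a median of -0.83. Its 21 calls became 13 without LSK+ WT replicate 1, 5 without LSK+ WT replicate 2 and 10 without LSK- WT replicate 2.

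Glycolysis had 3 of 19 genes higher and 2 lower (median 0.07), shares near the 14.0% and 12.7% over all genes, and 4 and 3 in XistΔ/Δ. Aldoc, an aldolase, was at 28.8 and 20.4 against 2.12 and 4.97 CPM (log2 difference 2.80, SE 0.42, adjusted p = 0.00282), Eno2, an enolase, at 4.94 and 8.98 against 0.541 and 0.114 CPM (log2 difference 4.40, SE 0.96, adjusted p = 0.0122), and the glucose carrier Slc2a3 at 139.5 and 148 against 37.1 and 66.5 CPM (log2 difference 1.47, SE 0.31, adjusted p = 0.0105). Hk3, a hexokinase of myeloid cells, at 163 and 172 against 519 and 388 CPM (log2 difference -1.44, SE 0.37, adjusted p = 0.0224), and Gpi1, at 282 and 228 against 777 and 510.5 CPM (log2 difference -1.33, SE 0.32, adjusted p = 0.0175), were lower. Pkm and Aldoa were at 744 and 459 against 678 and 614 CPM and 470.1 and 409 against 609.5 and 655 CPM, with no call. Without LSK+ WT replicate 2, 1 was higher and 0 lower, and the median turned to -0.20 without LSK- WT replicate 2. Gapdh, at 2.43 and 2.23 against 3.02 and 1.42 CPM, and Eno1, at 3 counts or fewer in each WT library, have many near-identical copies and were not measured well.

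Xist, the RNA that silences an X chromosome in female cells and the gene deleted in this series (chrX:103460366-103483254, minus strand), was lower in LSK+ WT, at 36.0 and 60.4 against 234 and 209 CPM (log2 difference -2.20, SE 0.28, adjusted p = 0.00124). In the XistΔ/Δ libraries it was at 0.818 and 0.694 CPM in LSK+ and 89.4 and 64.2 CPM in LSK-, a log2 difference of -6.66. The deleted gene was thus below WT in each population, and far less so in LSK- than in LSK+. The population difference was larger in XistΔ/Δ than in WT by 4.46 on the log2 scale (SE 0.41, edgeR adjusted p = 0.0448), the only gene of 14910 called in that test (0.00671%), where 350 had an unadjusted p under 0.05 and DESeq2 called 13 genes in that direction and 5 in the other. The call was lost with upper-quartile scaling and with the exon length trend removed. With each of the 8 libraries left out in turn the value was 4.04 to 4.78, and the call was lost in 5 of the 8 cases, among them both LSK+ XistΔ/Δ libraries. Tsix, which overlaps Xist on the other strand, was at 0.415 and 1.17 against 5.82 and 7.33 CPM in WT (log2 difference -3.04, SE 0.58, adjusted p = 0.00698), and without a stated strand its reads and those of Xist cannot be told apart. Rlim, which activates Xist, was at 55.9 and 58.6 against 93.0 and 94.0 CPM (log2 difference -0.71, SE 0.16, adjusted p = 0.0134), while Jpx and Ftx were not called (3.39 and 4.93 against 2.69 and 4.31 CPM, and 15.1 and 18.3 against 21.1 and 11.3 CPM). Over the X chromosome, the median difference in WT was 0.12 (514 genes, 79 higher and 58 lower), against 0.029 on the autosomes (14373 genes, 2002 and 1834). Of 10 genes listed as escaping X inactivation, 1 was higher and 3 were lower (median -0.50), where 14.0% and 12.7% of all genes were. The share that was higher was not above that of all genes. Whether the 10 genes escape in these cells was not measured. Eif2s3x, at 3.24 and 3.48 against 7.73 and 9.42 CPM, Pbdc1 and Usp9x were lower and 5530601H04Rik higher. In XistΔ/Δ 0 of the 10 were higher and 1 lower. Leaving out LSK+ WT replicate 2 gave 0 in each direction, and without LSK- WT replicate 2 there were 0 higher and 5 lower.

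**Figure D4:**
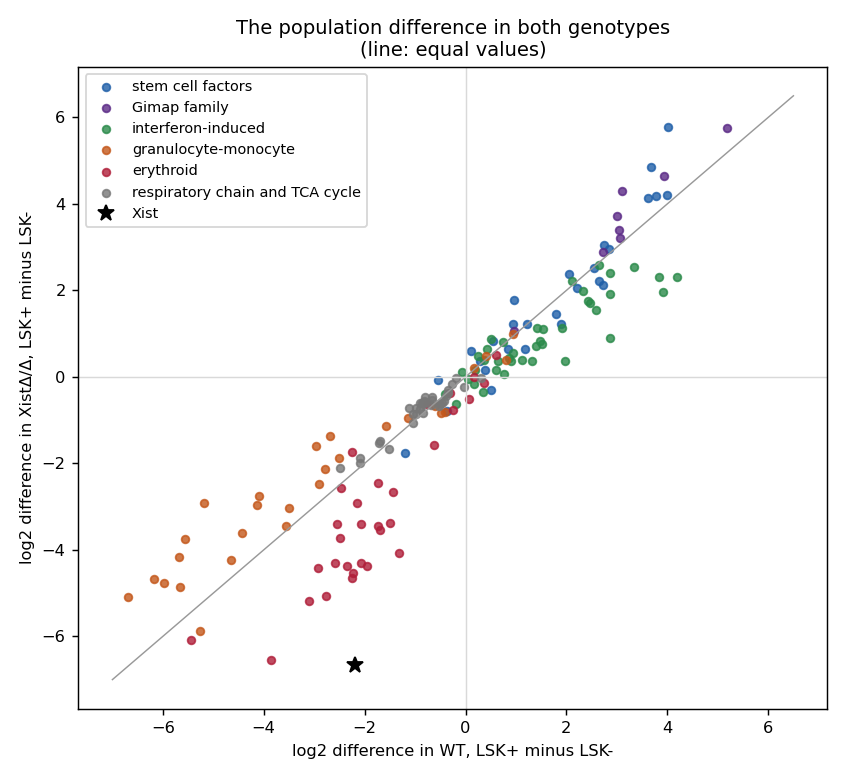
LSK+ minus LSK- log2 difference in WT (horizontal axis) and in XistΔ/Δ (vertical axis) for the members of 6 gene lists, with Xist as a star and the line of equality. Single members can lie far from the line, as Tspo2 of the erythroid list does at -3.85 in WT and -6.54 in XistΔ/Δ. Xist lies below the line, at -2.20 in WT and -6.66 in XistΔ/Δ.

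Outside the lists, the genes with the largest differences were taken among those that reached a mean of 10 CPM in the higher population. Nov (CCN3), a matrix protein known in stem cells, had 588 and 731 counts in LSK+ and 7 and 0 in LSK- WT (log2 difference 7.88, SE 1.32, adjusted p = 0.00423). Bcam, the Lutheran blood group protein, was at 31.5 and 25.1 against 0.277 and 0.0568 CPM (log2 difference 7.37, SE 0.75, adjusted p = 0.000573), Vnn1, a pantetheinase, at 9.33 and 14.8 against 0.119 and 0.128 CPM (log2 difference 6.59, SE 0.67, adjusted p = 0.000579), and Hgfac, a protease that activates hepatocyte growth factor, at 21.5 and 28.0 against 0.580 and 0.398 CPM (log2 difference 5.65, SE 0.39, adjusted p = 0.000215). Lhcgr, the receptor of luteinizing hormone, was at 8.88 and 13.2 against 0.119 and 0.242 CPM, Spo11, of meiotic recombination, at 6.94 and 17.9 against 0.435 and 0.0568 CPM, and Apbb1, Tns2, Myof and Iigp1, an interferon-induced GTPase that the list did not hold, were higher by 5.66, 5.64, 5.58 and 5.53. All of these were below 1 CPM in each LSK- WT library. For Iigp1 the XistΔ/Δ difference was 1.76, with 56.5 and 42.8 CPM in LSK+ and 2.1 and 27.1 CPM in LSK-.

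Among the genes that were lower, Selenbp2 had 742 and 1490 counts in LSK- WT and 1 and 0 in LSK+, for which no fold is given. Mefv (pyrin), an inflammasome protein of myeloid cells, was at 0.0943 and 0.0330 against 34.0 and 5.41 CPM (log2 difference -8.27, SE 1.41, adjusted p = 0.00459), Trem3, a receptor of myeloid cells, at 0.999 and 0.297 against 71.3 and 24.7 CPM (log2 difference -6.22, SE 0.94, adjusted p = 0.00273), and Cldn15, a claudin, at 0.585 and 0.528 against 83.3 and 27.4 CPM (log2 difference -6.63, SE 0.82, adjusted p = 0.00117). Olr1, a scavenger receptor, Wfdc21, Dmkn and Sgms2 were lower, with log2 differences of -6.86, -6.46, -6.46 and -6.08, and LSK- replicate 1 was above replicate 2 in each of them. The histone genes Hist1h2ai, at 0.752 and 43.0 CPM in LSK-, and Hist1h2an have near-identical copies, and their values are uncertain.

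Libraries of the same population did not always agree. Immediate early and heat shock genes, which are known to respond within minutes to handling and heat, had a median of -1.64 with 0 of 22 called. Fos was at 589 and 16.0 CPM, Jun at 1944 and 17.7 CPM and Hspa1a at 324 and 0.142 CPM in LSK- WT replicates 1 and 2, and Jun was at 318 and 15.9 CPM in LSK+. LSK- WT replicate 1 stood above the other 3 WT libraries, and without it the median was 1.36, while without LSK- WT replicate 2 there were 10 lower. LSK- WT replicate 1 was also the higher for Epx and Prg2, and replicate 2 for Klf1, Car1, Camp and S100a8. The part of these differences in the results was not tested beyond leaving each library out. Rn45s, the precursor of ribosomal RNA, was lower in LSK+, at 419 and 428 against 7491 and 4485 CPM (log2 difference -3.82, SE 0.53, adjusted p = 0.00201), and Malat1 and Neat1, RNAs kept in the nucleus, overlapped between populations. The mitochondrial genes were not analysed here.

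**Figure D5:**
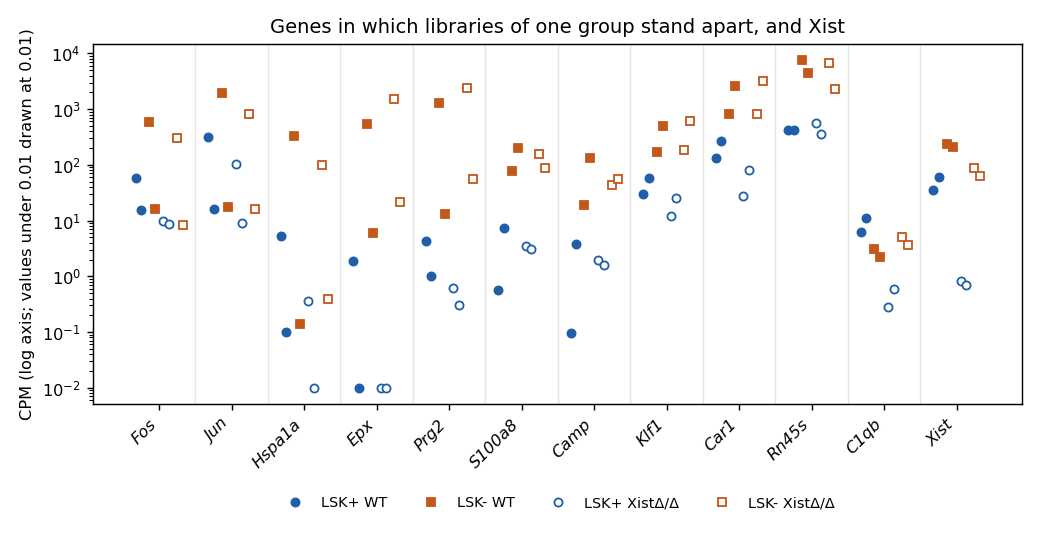
CPM (log axis) of 12 genes that differed between replicates or mark other cells or RNA quality, in the 8 LSK libraries, with circles for LSK+, squares for LSK-, filled marks for WT and open marks for XistΔ/Δ. LSK- WT replicate 1 is the highest WT library for Jun (1944 CPM) and Epx (541 CPM), and LSK- WT replicate 2 for Camp (133 CPM) and Klf1 (494 CPM).

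Markers of other marrow cells were read as well. B cell markers had 0 of 9 called in either direction, with Pax5 at no more than 0.13 CPM. Of the T and NK cell markers 3 of 7 were higher, Lck (109 and 74.9 against 20.1 and 12.4 CPM), Cd4 and Klrb1c, while the CD3 genes Cd3d, Cd3e and Cd3g were at 0.14 CPM or less in each WT library. Macrophage markers had C1qb higher (6.34 and 11.2 against 3.07 and 2.19 CPM) and Adgre1 lower (0.981 and 1.80 against 6.87 and 5.44 CPM) of 8. These shares were near the 14.0% and 12.7% over all genes. The median of the list was 1.12 in WT and -2.31 in XistΔ/Δ, where 0 were higher and 5 lower. For C1qb the XistΔ/Δ difference was -3.33 and was called in that direction (edgeR adjusted p = 0.00347). The WT call for C1qb was lost without LSK+ WT replicate 2 and without either LSK- WT library, and that for Adgre1 with any WT library left out. Endothelial and stromal markers had 3 of 9 higher, Emcn (25.9 and 33.8 against 2.14 and 2.56 CPM), known in stem cells too, Col1a2 (70.8 and 31.4 against 4.10 and 10.8 CPM) and Col1a1 (0.792 and 0.710 against 0.0396 and 0 CPM), and 1 of the list was called without LSK+ WT replicate 1. Cdh5, which defines endothelium, was at 0.02 CPM or less. Dendritic cell and erythroblast markers had 0 called among 7 and 4 tested.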

How the data were processed

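The authors deposited a table of raw counts per gene symbol for each library. Per their methods and the processing notes, the reads were trimmed with Trim Galore 0.6.0, aligned to mm10 with TopHat2 2.1.1, filtered on mapping quality with SAMtools 1.10 and counted on exons with featureCounts 1.6.3. The annotation, any strand option and whether a count is a read or a read pair are not given in the sources used here.

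From these counts, the 8 LSK libraries were fitted together with edgeR 4.0.16 (R 4.3.3): TMM scaling, the filterByExpr filter, 1 mean per population and genotype, the quasi-likelihood test (two-sided) and Benjamini-Hochberg adjustment over all genes tested, called at an adjusted p under 0.05. This sharing assumes that the 4 groups vary alike. CPM are counts per 1000000 of the TMM-scaled library. The procedure was tested on simulated data. Of 24421 symbols, 24054 were placed with GENCODE vM21 and 281 with RefSeq, and 14795 of the 14910 tested genes had an exon length.

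The comparison, the gene lists and the rule for named genes were chosen with earlier results of these data known. The rule takes Ly6a, Kit and Xist, in each list up to 4 called members per direction with the smallest p and no overlap between the WT populations, and outside the lists the 10 largest called differences per direction at a mean of at least 10 CPM. List members without a call, and further called members, are named with their values. Some list members are counted but not reported here by name. Lists are described by counts and medians, with no test of a list. Alternatives were another scaling, filter or test (DESeq2 1.42.0), thinned counts, a replicate block, the 4 WT libraries alone, each WT library left out, and, added after the data were seen, removal of exon length and GC trends by lowess and each of the 8 libraries left out of the test between genotypes.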

Additional observations from a re-analysis of the deposited data

Results flagged for a closer look

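Xist stood out because its population difference was not the same in both genotypes. The LSK+ minus LSK- log2 difference was -2.20 in WT and -6.66 in XistΔ/Δ, and the difference between these was 4.46 (SE 0.41, edgeR quasi-likelihood interaction, adjusted p = 0.0448, 2 libraries per group). The 2 LSK- XistΔ/Δ libraries held 89.4 and 64.2 CPM of this gene against 0.818 and 0.694 CPM in the LSK+ XistΔ/Δ libraries. Which of deletion, cell makeup and read type gave these levels was not tested. With 1 library left out at a time, a check added after the data were seen, the difference was 4.04 to 4.78. The call was lost without LSK+ WT replicate 2 (adjusted p = 0.0906), LSK- WT replicate 2 (0.209), LSK+ XistΔ/Δ replicate 1 (0.476) or 2 (0.580) and LSK- XistΔ/Δ replicate 1 (0.0717).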

How the results depend on the processing

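The rule for named genes asks mostly for a call and no overlap between the WT populations, which largely fixes their direction in advance. The 126 named genes kept their direction under each alternative run (125 of them, those with an exon length, under the trends). Calls among them were lost for 8 with the exon length trend removed, 4 with length and GC trends removed, 7 with the 4 WT libraries alone, 1 with upper-quartile scaling, 31 when tested against a 1.5-fold difference, and for 13 to 41 with a WT library left out, the most without LSK+ WT replicate 2. Kit lost its call with the length trend removed (adjusted p = 0.0970), with both trends removed (0.0688), with the 4 WT libraries alone (adjusted p = 0.114), against 1.5-fold (0.219), without LSK+ WT replicate 2 (0.0919) and without LSK- WT replicate 1 (0.0660).

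Against a 1.5-fold difference 1166 genes were higher and 793 lower. With a WT library left out the higher genes ranged from 902 to 2227 and the lower from 638 to 1892. Upper-quartile scaling raised the median of all genes from 0.031 to 0.11 and the share of calls that were higher from 52.4% to 59.2%. The genotype difference gave 0 genes with upper-quartile scaling or either trend removed, and with DESeq2 13 higher and 5 lower. With each of the 8 libraries left out in turn it gave 0 to 33 higher, 33 without LSK- WT replicate 1, and 0 lower. List medians that moved by more than the replicate spread when a library was left out ranged from -4.65 to -3.02 for basophil, mast cell and eosinophil genes, 0.197 to 0.660 for cytokine receptors, -0.71 to -0.37 for escape genes, -2.53 to 1.36 for immediate early genes, -0.88 to 0.015 for B cell, -1.35 to 1.12 for dendritic cell and 0.484 to 1.94 for endothelial markers. Cytokine receptors had 0.32 with the length and 0.40 with both trends removed, RNA quality genes 0.048 and 0.11, and endothelial markers 1.30 with the 4 WT libraries alone. Medians that stayed within the replicate spread but moved by over 1.5 times ranged from -5.85 to -2.19 for late neutrophil genes, -0.97 to -0.26 for heme synthesis, -0.68 to -0.11 for megakaryocyte genes, 0.33 to 0.74 for lymphoid genes, -0.71 to -0.17 for G2/M, -0.92 to -0.38 for S phase, -0.76 to -0.24 for ribosome biogenesis -1.05 to -0.53 for respiration, -1.15 to -0.25 for RNA quality genes, -0.997 to -0.142 for erythroblast and 0.28 to 1.74 for macrophage markers, and -0.20 to 0.20 for glycolysis. The causes were not tested.

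With the replicate number as a block, 2360 genes were higher and 2203 lower, the genotype difference gave 2, and Ly6c1 lost its call (adjusted p = 0.0516). Over all genes, the deviations of same-numbered LSK+ and LSK- libraries were little correlated (r = 0.027 in WT and 0.051 in XistΔ/Δ). Single genes, such as Camp, S100a8, Klf1 and Gata1 in WT, did deviate the same way in both populations. A correlation over all genes cannot show whether same-numbered libraries share mice or handling. Across genotypes the same-numbered LSK- libraries deviated together (r = 0.364), and the LSK+ libraries less so (r = 0.138).

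With 2 libraries per group and the population tied to read type, small differences cannot be attributed, and genes near the floor of 3 counts rest on counting error.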
